A study of Canis lupus familiaris with 28 samples.

Results

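Platelets are cell fragments without a nucleus that bud from megakaryocytes and carry megakaryocyte RNA, so whole blood RNA holds a platelet share beside that of red and white cells. They adhere to von Willebrand factor through the glycoprotein Ib-IX-V complex, aggregate through the fibrinogen receptor made of integrins alphaIIb and beta3, and release chemokines, adhesion molecules and clotting factors from their granules. Platelet chemokines and P-selectin are also known to engage leukocytes, which is why they are followed in inflammatory and allergic disease.

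The platelet genes PF4, PPBP, ITGA2B, ITGB3, GP9, GP1BA, TUBB1, TREML1, F13A1 and SELP were examined in blood of 20 dogs with atopic dermatitis (AD dogs) and 8 healthy dogs. The labels call the material whole blood, whereas the study's methods speak of RNA from blood nuclear cells, both naming the same stabilising tubes and extraction kit. Platelets have no nucleus, and which of the descriptions holds was not settled here. The dogs were privately owned patients of a veterinary clinic. The study's methods describe AD dogs of various breeds and both sexes, bled while clinical signs were visible. Their allergy was shown by serum and skin testing, with a period free of anti-inflammatory drugs before those tests. The healthy dogs, also of various breeds and both sexes, were donors of a veterinary blood bank, seen for a routine checkup. AD dogs were mostly female and healthy dogs mostly male, with a somewhat higher mean age in healthy dogs. Donor status is given for healthy dogs only, and the part of these differences in the values was not tested. The labels give the disease state of each dog and no breed, sex, age or platelet count. RNA of each dog was labelled with Cy5 and hybridised to its own two-colour canine array against 1 common reference, a Cy3-labelled pool from 13 other healthy dogs.

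Members were found by an exact match of the gene name of each probe. Of the 10 names, 9 were found, on 13 of the 43603 probes, and no probe carried the name PF4, so PF4, the other abundant platelet chemokine beside PPBP, is not analysed here. Each value is the log2 ratio of dog signal to reference signal, with the median of the array set to 0, so that a positive value means more RNA in the dog than in the pool relative to the typical probe. A gene is represented by its brightest probe unless another probe is named. In bulk blood a lower value can come from fewer platelets, from less RNA per platelet or from more RNA of other cells, and these cannot be told apart. The study states, without showing the data, that platelet numbers were similar in both groups, and no platelet count was used here.

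The probes that decide how far each gene was measured are shown with their canFam3 positions, as the array files give them. The first pair are the PPBP probes, which lie at chr13:62527607-62527666 and chr13:62527610-62527669 on the plus strand. The 57 bases that they share are in capitals, so they are in effect 1 measurement.
PPBP A_11_P218868: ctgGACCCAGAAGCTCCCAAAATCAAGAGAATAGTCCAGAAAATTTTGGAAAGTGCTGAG
PPBP A_11_P0000026703: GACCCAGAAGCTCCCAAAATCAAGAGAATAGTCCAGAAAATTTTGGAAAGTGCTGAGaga

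The ITGA2B and GP9 probes are shown because this pair of genes gave the highest correlation among AD dogs. The ITGA2B probe covers chr9:19062833-19063762 on the plus strand, a span of 930 bases for a probe of 60, so its bases are not contiguous in the genome. The GP9 probe covers chr20:3028116-3028175 on the minus strand.
ITGA2B A_11_P0000019881: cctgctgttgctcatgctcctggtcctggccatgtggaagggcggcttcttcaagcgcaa
GP9 A_11_P0000028704: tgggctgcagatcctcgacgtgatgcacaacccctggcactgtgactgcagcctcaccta

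The F13A1 probes, on chromosome 35 and the minus strand, are shown because they did not follow each other closely. The first covers chr35:6195192-6195251 and the second spans chr35:6277782-6298637, 20856 bases, so that its bases are not contiguous either.
F13A1 A_11_P056176: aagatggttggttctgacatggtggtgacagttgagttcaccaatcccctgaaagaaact
F13A1 A_11_P0000023827: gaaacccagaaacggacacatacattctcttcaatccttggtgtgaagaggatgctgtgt

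The TUBB1 probe, at chr24:43765725-43765784 on the plus strand, is shown because it failed. TUBB1 encodes the beta-1 tubulin of the platelet's marginal band. Of its bases, 76.7% are G or C, more than in any other member probe.
TUBB1 A_11_P0000029783: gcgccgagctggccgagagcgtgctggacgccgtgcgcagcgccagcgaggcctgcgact

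The TUBB1 probe was well above background in the dog channel of 3 AD and 2 healthy dogs and in the reference channel of no array. Its median dog signal was 23.6 in AD dogs, against 19.7 in healthy dogs, under the signal limit of 100, so TUBB1 has no usable level here. The other 8 genes, with 12 probes, passed the limit, and their brightest probes were well above background in both channels on all 28 arrays. None of their spots was saturated or marked as an outlier. The share of all probes well above background in the dog channel was 84.3% to 90.3% on healthy and 51.7% to 87.5% on AD arrays, lowest on scan day 5 with 6 AD dogs. Over 16 correlations of this share with a platelet gene, 1 for each of the 8 genes in each group, r lay between -0.05 and 0.27 in AD dogs and between -0.53 and 0.08 in healthy dogs, and the smallest permutation p of all 16 was 0.178, with adjusted values of 0.934.

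Markers of other blood cells were looked up for detection, with members left out of the lists. Of all probes, 84.3% to 90.3% on healthy and 51.7% to 87.5% on AD arrays were well above background in the dog channel. Detection of such markers therefore cannot decide between whole blood and blood nuclear cells. All 6 of 6 red cell, 7 of 7 monocyte, 7 of 7 T cell and 6 of 6 B cell markers with a probe, and 7 of 8 for neutrophils, were well above background in at least 14 of the 28 dogs, as were all 8 of 8 endothelial markers.

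No platelet gene differed between AD and healthy dogs in limma at the level of the study's own gene list, an adjusted p of 0.085. The count was 0 of 8 genes and 0 of 12 probes, where 0% of the 30202 probes tested were called, and at an unadjusted p under 0.05 it was again 0 of 8 and 0 of 12, against 6.12% of all probes. The study did report transcripts at its level, after a filter that kept fewer of them, so its list was not reproduced here. The cause of that difference was not tested. The 8 fold changes were all negative, with a median log2 fold change of -0.24 against -0.01 over all probes, but with the dog channel alone 7 of 8 were negative and GP9 was at 0.05. These genes co-varied across dogs, so their signs do not count as 8 separate observations. Adjusted p values of the member probes lay between 0.852 and 0.962. All healthy dogs lay on 2 slides scanned on 1 day and no slide held both groups, so slide and group cannot be told apart except through the spread between slides. Taking slide as a random block gave a median of -0.24 and called no member.

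GP1BA and ITGB3, receptors for adhesion and aggregation, gave the largest differences among the 8 genes. GP1BA encodes the von Willebrand factor binding chain of the glycoprotein Ib complex. Its log2 ratio ran from -1.37 to 0.58 in AD dogs, with a median of -0.28, and from -1.53 to 0.89 in healthy dogs, with a median of 0.21. The lowest value of all 28 dogs was thus a healthy one, healthy dog 1. The log2 fold change was -0.49 (95% CI -1.04 to 0.06, limma p = 0.0791, adjusted p = 0.852). Of the 20 AD dogs, 15 were below the healthy mean. Without healthy dog 1 the log2 fold change was -0.72, with an unadjusted limma p of 0.00739 and an adjusted p of 0.312. In that fit 8.45% of all probes had an unadjusted p under 0.05.

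GP9, the small chain that stabilises the same complex, did not follow in size. Its log2 ratio was -1.03 to 1.14 in AD dogs, with a median of 0.18, and -0.39 to 0.68 in healthy dogs, with a median of 0.32. The log2 fold change was -0.07 (95% CI -0.48 to 0.35), and AD dogs lay beyond the healthy range at both ends, 4 above and 2 below.

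ITGB3 encodes the beta3 chain of the fibrinogen receptor. Its brightest probe ran from -1.06 to 0.53 in AD dogs, with a median of -0.23, and from -1.17 to 0.97 in healthy dogs, with a median of 0.28. The log2 fold change was -0.38 (95% CI -0.83 to 0.07, limma p = 0.0915). The healthy mean was above 16 of 20 AD dogs, while none fell outside the healthy range. A dimmer ITGB3 probe gave -0.20, and the 2 probes correlated at r = 0.492 in AD dogs, against -0.417 in healthy dogs, so the order of the dogs differed between them. ITGA2B, the alphaIIb partner chain, ran from -1.25 to 0.68 in AD dogs, against -0.72 to 0.95 in healthy dogs, with medians of -0.12 and 0.13. Its log2 fold change was -0.22 (95% CI -0.64 to 0.20).

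Granule and surface proteins gave the same picture of broad overlap. PPBP, the precursor of the neutrophil-attracting chemokine CXCL7, spanned the widest range in AD dogs, from -1.35 in AD dog 19 to 0.99 in AD dog 9, a 5.08-fold range, with a median of -0.30. In healthy dogs it ran from -0.91 to 0.97, with a median of -0.10. The log2 fold change was -0.37 (95% CI -0.92 to 0.18), and the overlapping second probe gave -0.38. Without slide 2, which held healthy dogs 1 to 4, the PPBP value turned to 0.07, and without slide 3, which held healthy dogs 5 to 8, it was -0.81 (limma p = 0.0285, adjusted p = 0.935).

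SELP encodes P-selectin, which tethers activated platelets to leukocytes and is also made by endothelium. It ran from -1.31 to 0.72 in AD dogs, against -0.82 to 0.99 in healthy dogs, with a log2 fold change of -0.25 (95% CI -0.69 to 0.19). Its other probe gave -0.22. TREML1, the granule receptor TLT-1, ran from -1.25 to 0.76 in AD dogs, against -1.06 to 0.56 in healthy dogs, with a log2 fold change of -0.13 (95% CI -0.55 to 0.29). F13A1, the A subunit of clotting factor XIII, which cross-links fibrin and is also made by monocytes, ran from -0.82 to 0.53 in AD dogs, against -0.53 to 0.72 in healthy dogs, with a log2 fold change of -0.16 (95% CI -0.51 to 0.19). Its dimmer probe gave -0.08.

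**Figure D1:**
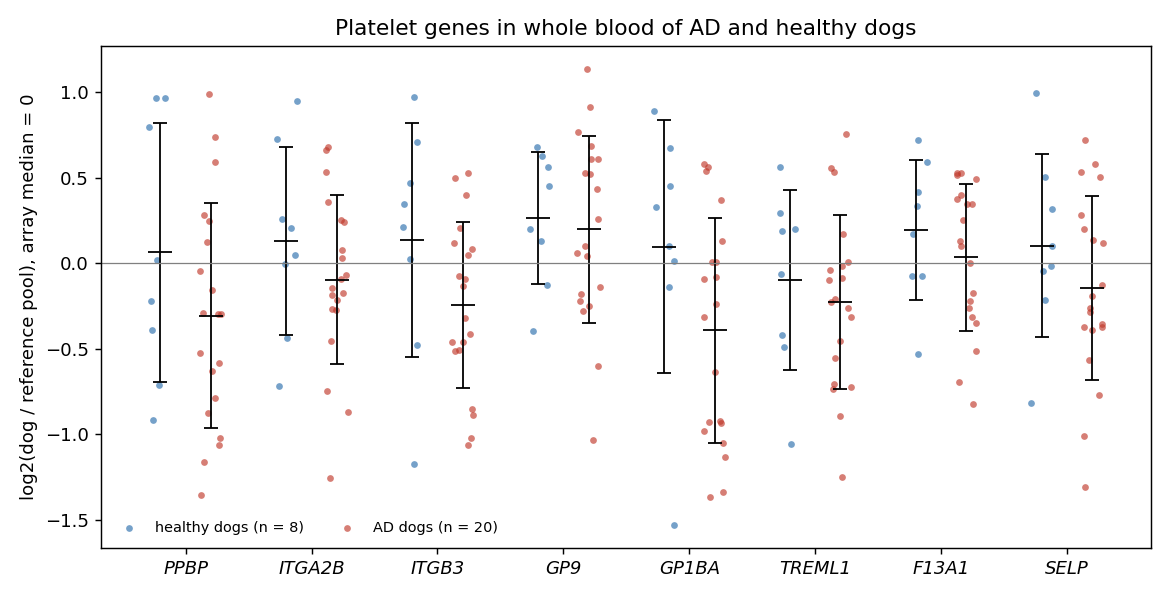
Log2 ratio of dog to reference pool (y axis, array median at 0) for the brightest probe of 8 platelet genes (x axis) in 8 healthy (blue) and 20 AD dogs (red), with 1 point per dog and bars for mean ± SD. The groups overlap for each of the 8 genes, and the single lowest GP1BA value, -1.53, is a healthy dog.

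**Figure D2:**
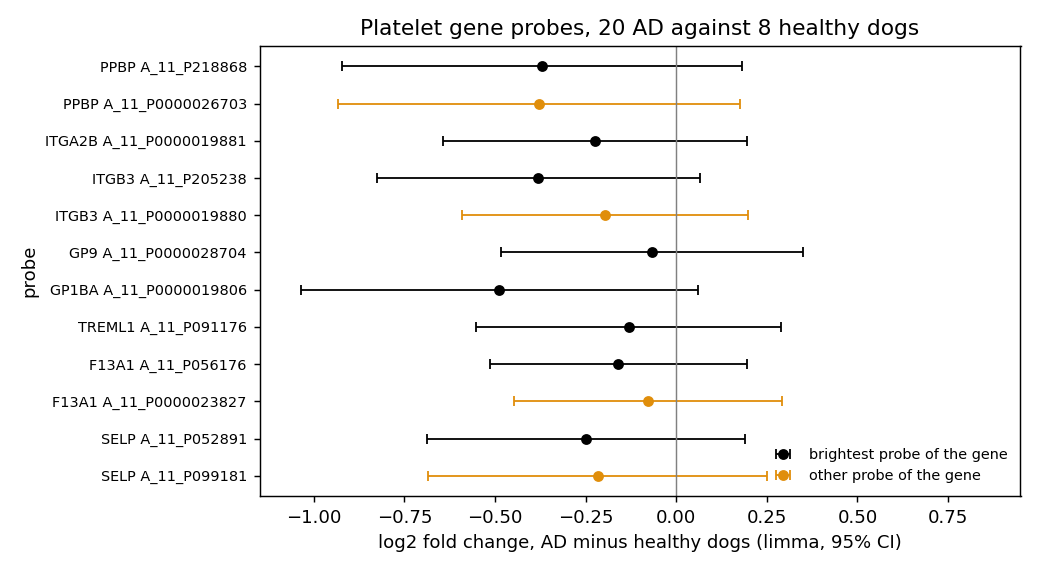
Log2 fold change of AD minus healthy dogs (x axis) with its 95% confidence interval from limma, for the 12 member probes above the signal limit (y axis). Each of the 12 intervals crosses 0, and the brightest probes run from -0.49 for GP1BA to -0.07 for GP9.

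Single arrays and slides moved the median log2 fold change of -0.24 by more than 1.5 times. It was -0.36 without healthy dog 1, -0.15 without slide 8, -0.13 without scan day 5 and -0.12 with limma's array weights, and in none of these was a platelet gene called. With each dog left out in turn, ITGA2B ran from -0.34 to -0.11, TREML1 from -0.27 to -0.04, F13A1 from -0.26 to -0.09, SELP from -0.38 to -0.12, GP9 from -0.16 to -0.003, PPBP from -0.51 to -0.24, ITGB3 from -0.57 to -0.26 and GP1BA from -0.72 to -0.38. Leaving out healthy dog 1 gave the lowest value for each of them but PPBP, and ITGB3 then had an unadjusted limma p of 0.00943 and an adjusted p of 0.342. Without that dog 2 of 8 genes had an unadjusted p under 0.05, beside 8.45% of all probes. With array weights it was also 2 of 8, beside 18.9% of all probes. With the dog channel alone ITGA2B was at -0.05 and F13A1 at -0.03. On slide 8 the means of all 3 AD dogs over the 8 genes were low, at -0.39, -0.74 and -0.56.

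The reference channel held the same pool on every array, yet its signal differed between AD and healthy arrays for 39.1% of probes at an adjusted p of 0.085. Of the 8 members, 2 were among them, PPBP and ITGB3, whose reference signal was higher on AD arrays by 0.17 and 0.19 on the log2 scale (adjusted p = 0.0336 and 0.00825). Without reaching that level, it was also higher by 0.22 for ITGA2B, 0.16 for GP9, 0.15 for F13A1 and 0.06 for SELP. For GP1BA and TREML1 the difference was -0.02 and -0.05. In the dog channel alone, quantile normalised, PPBP differed by -0.28 and ITGB3 by -0.25, 4.14% of all probes were called and none of the 8 members was. The part of this shift in the ratios was not tested.

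Platelet genes varied among healthy dogs as well, though less so without healthy dog 1. The SD of the log2 ratio between dogs had a median over the 8 genes of 0.52 in AD dogs, against 0.54 in healthy dogs, whereas over all probes it was 0.43 and 0.30. The SD was larger in AD than in healthy dogs for 3 of 8 platelet genes, and for 77.6% of all probes. For GP1BA the highest and lowest healthy dogs were 5.34-fold apart, and for ITGB3 4.42-fold. Without healthy dog 1 the healthy median SD was 0.40 for the platelet genes and 0.28 for all probes, and the SD was larger in AD dogs for 7 of 8 platelet genes and for 79.4% of all probes. The range was then 2.04-fold for GP1BA and 2.73-fold for ITGB3.

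The genes moved together from dog to dog. The mean over the 8 genes ran from -0.96 to 0.63 in AD dogs, with a median of -0.26, and from -0.87 to 0.63 in healthy dogs, with a median of 0.25. In AD dogs 3, 9, 15 and 16 all 8 genes were above 0, and in AD dogs 5, 17, 19 and 20 all 8 were below 0. Healthy dog 1 was the only healthy dog with all 8 on 1 side, below 0, at a mean of -0.87. Dogs on the same slide stood at opposite ends: on slide 7, AD dogs 15 and 16 had means of 0.37 and 0.47 and AD dog 17 the lowest of all, -0.96.

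**Figure D3:**
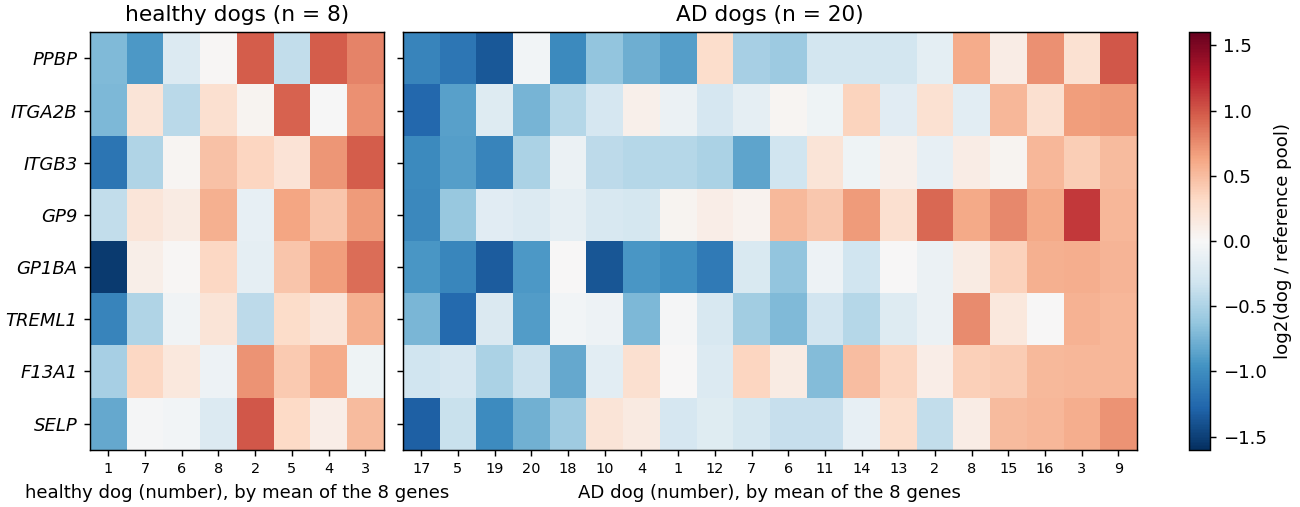
Log2 ratio of dog to reference pool (colour, blue below and red above the array median) of the 8 platelet genes (rows) in 8 healthy and 20 AD dogs (columns, ordered within each group by the mean of the 8 genes). Columns are mostly of 1 colour at both ends, from a mean of -0.96 in AD dog 17 to 0.63 in AD dog 9 and in healthy dog 3.

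Co-variation was measured as Pearson's r and Spearman's rho for each of the 28 pairs of genes, in 20 AD and in 8 healthy dogs, 56 relations in all, with permutation p values adjusted over the 56 by the Benjamini-Hochberg method. In AD dogs all 28 r were positive, from 0.394 to 0.868 with a median of 0.655, and 27 of 28 had an adjusted p of at most 0.05, by r and by rho alike. Over all pairs of 23307 genes in the same dogs the median r was -0.01, and 4.3% of pairs reached the platelet median of 0.655. The share of all pairs at an adjusted p of at most 0.05 was not computed, so the count of 27 has no share beside it. With the 2 dogs farthest from the median of the first gene left out, the AD median was 0.611 and all 28 stayed positive. With slide means removed it was 0.686, and without scan day 5 it was 0.622. Genes measured on the same array share its labelling and its reference signal, and the part of these in the co-variation was not tested. The reference channel alone gave a median r between members of 0.03 in AD dogs, against -0.01 in healthy dogs, and the dog channel alone 0.722 and 0.707.

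The highest AD pair was ITGA2B with GP9, the probes shown above, at r = 0.868 (rho 0.794, permutation p = 2e-05 and 0.0001, adjusted 0.00056 and 0.0014, 0.839 without the 2 farthest dogs). The smallest p that 100000 resamples can give is 1e-05. ITGB3 with GP1BA followed at r = 0.847 (rho 0.850, 0.828 without those dogs, adjusted permutation p = 0.00056 for both), and ITGB3 with GP9 at r = 0.777 (rho 0.741, 0.729 without them, adjusted permutation p = 0.00056 and 0.00336). The 2 chains of the fibrinogen receptor, ITGA2B and ITGB3, correlated at r = 0.713 (rho 0.684, 0.594 without them, adjusted permutation p = 0.0021 and 0.0056). The 2 chains of the von Willebrand factor receptor, GP9 and GP1BA, correlated at r = 0.736 (rho 0.728, 0.723 without them, adjusted permutation p = 0.0021 and 0.00411). Neither pair of partner chains was among the 3 highest. ITGB3 stands here by its brightest probe, and its 2 probes correlated at only 0.492 in AD dogs. With the mean of a gene's probes, ITGB3 with GP1BA was at r = 0.651 and ITGA2B with ITGB3 at r = 0.794.

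F13A1 was in each of the 3 lowest AD pairs. It reached r = 0.543 with GP1BA (rho 0.609, 0.481 without the 2 farthest dogs, adjusted permutation p = 0.0243 and 0.0132). With ITGB3 it reached r = 0.480 (rho 0.597, 0.362 without them, adjusted permutation p = 0.0491 and 0.0143), and with TREML1 r = 0.394 (rho 0.505, 0.320 without them, adjusted permutation p = 0.117 and 0.0439). Its own highest partner was SELP, at r = 0.733. The 2 F13A1 probes shown above correlated at only 0.490 in AD dogs and 0.118 in healthy dogs. The same values were 0.492 and -0.417 for the 2 ITGB3 probes. They were 0.982 and 0.996 for the 2 SELP probes and 0.997 and 0.997 for the overlapping PPBP probes.

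**Figure D4:**
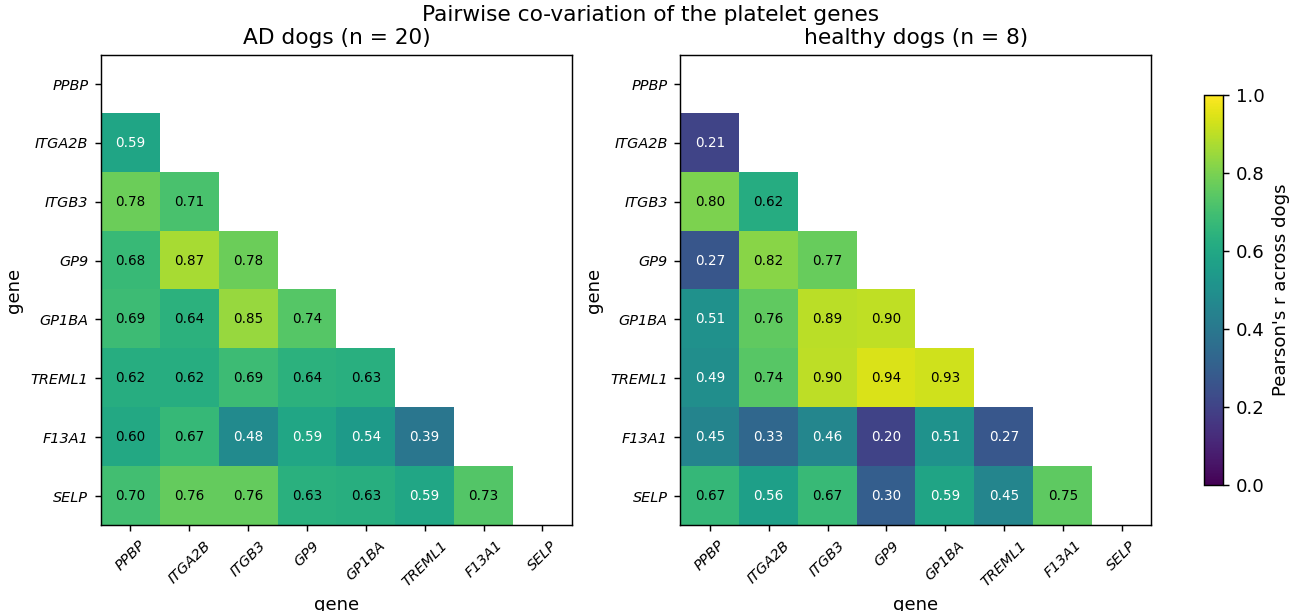
Pearson's r (colour and number) for each pair of the 8 platelet genes across 20 AD dogs (left) and 8 healthy dogs (right), both axes listing genes. The lowest value is 0.39 on the left, for TREML1 with F13A1, and 0.20 on the right, for GP9 with F13A1.

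In healthy dogs all 28 r were positive too, from 0.203 to 0.943 with a median of 0.603, and 10 of 28 had an adjusted p of at most 0.05 by r and 7 by rho, in exact permutation tests over the 8 dogs. Over all pairs of genes the median r in these dogs was -0.005, and 12.3% of pairs reached the platelet median of 0.603. The share of all pairs at that adjusted p was not computed here either. GP9, GP1BA and TREML1 formed the 3 highest pairs: r was 0.943 for GP9 with TREML1, 0.926 for GP1BA with TREML1 and 0.905 for GP9 with GP1BA, and 0.862, 0.794 and 0.815 without the 2 farthest dogs. ITGB3 with GP1BA reached 0.895, ITGA2B with GP9 0.822, ITGB3 with GP9 0.766 and ITGA2B with ITGB3 0.619, the last with an adjusted exact permutation p of 0.133.

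Much of the healthy co-variation rested on healthy dog 1. Without it the median r fell to 0.302 and 18 of 28 pairs were positive, and the pairs of F13A1 with GP1BA, ITGB3 and TREML1 went from 0.511, 0.459 and 0.273 to -0.38, -0.20 and -0.53. GP9 with GP1BA was still at 0.872. With the 2 dogs farthest from the median of the first gene left out, the median was 0.494, 20 of 28 pairs were positive, and F13A1 with SELP dropped from 0.751 to 0.031. In AD dogs no single dog moved the median outside 0.620 to 0.689. Whether co-variation differed between AD and healthy dogs was not tested.

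**Figure D5:**
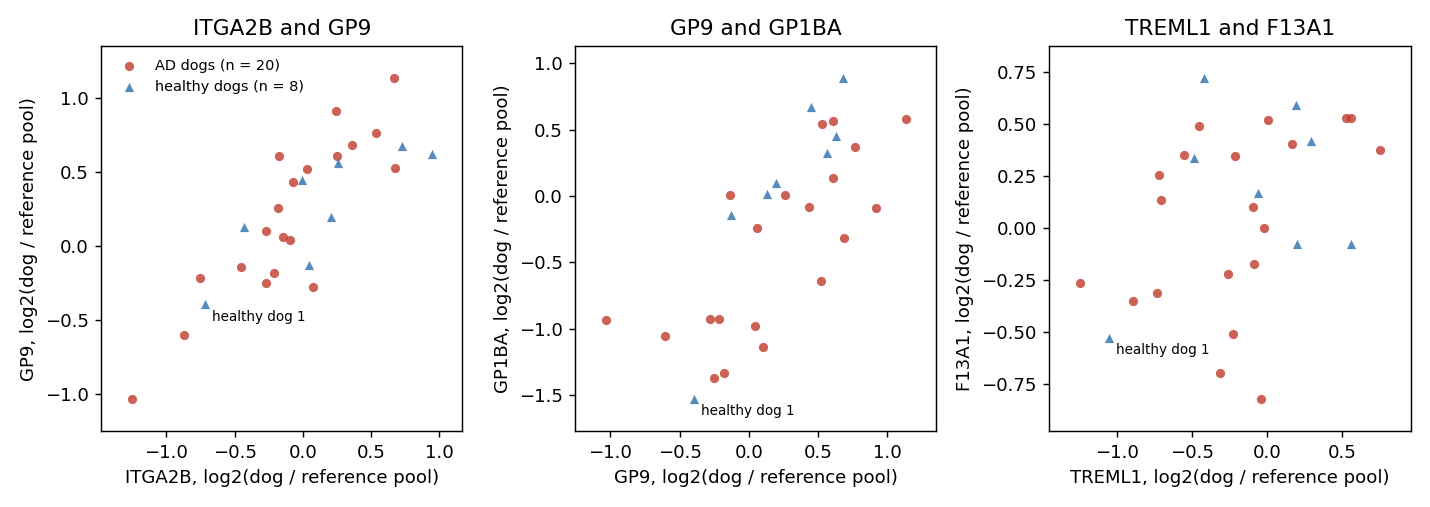
Log2 ratio of dog to reference pool of 1 platelet gene against another, for ITGA2B and GP9, GP9 and GP1BA, and TREML1 and F13A1, with 1 point for each of 20 AD dogs (red circles) and 8 healthy dogs (blue triangles). Healthy dog 1 lies at the low end of the healthy dogs on both axes of all 3 panels, and TREML1 with F13A1 is the loosest of the 3 in AD dogs at r = 0.394.

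Other genes were ranked by the correlation of their brightest probe with the mean of the 8 platelet genes over the 20 AD dogs, as a description without a test, among 10151 gene symbols with a median r of 0.03. The closest was KLHDC8B, a kelch domain protein, at r = 0.948, with 0.776 in the 8 healthy dogs. TPM4, a tropomyosin that binds actin, followed at 0.888 (healthy 0.676), then LGALSL, a galectin-like protein, at 0.868 (0.580) and ST6GALNAC6, a sialyltransferase, at 0.844 (0.738). TUBGCP4, of the gamma-tubulin complex, was at 0.794 (0.805), and UBE3B, a ubiquitin ligase, at 0.794 but only 0.083 in healthy dogs. ITGA6, the laminin receptor chain alpha6, was at 0.791 (0.821), PTGS1, cyclooxygenase-1, which starts thromboxane synthesis, at 0.791 (0.563), the lysosomal protease LGMN at 0.787 (0.902) and THBS1, thrombospondin-1 of the alpha granule, at 0.781 (0.925). By r in the 8 healthy dogs, the ranks of these 10 among the 10151 symbols ran from 41 for THBS1 to 4838 for UBE3B. KLHDC8B then ranked 501 and TPM4 973. PTGS1 and THBS1 were the 2 of these 10 on the list of 65 other platelet and megakaryocyte genes.

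Of those 65 genes, 53 had a probe by name and 49 passed the signal limit. None of the 49 was called between AD and healthy dogs, where 0% of all probes were. At an unadjusted p under 0.05 only THBS1 was lower in AD dogs and none was higher, beside 4.46% and 1.65% of all probes. The count at an unadjusted p under 0.05 was 10 of 49 with the dog channel alone, 5 with array weights and 4 with dog number as a block, where it was 19.5%, 18.9% and 17.1% of all probes. Their fold changes were positive for 23 and negative for 26, with a median of -0.002, beside 8 negative of 8 for the members. The members moved together from dog to dog, so their 8 signs are not 8 separate observations. The 9 receptors measured had a median r with the members of 0.254 in AD and 0.350 in healthy dogs, the 14 granule genes 0.109 and 0.150, the 21 genes of cytoskeleton, signalling and lipid mediators 0.470 and 0.431, and the 5 megakaryocyte transcription factors -0.04 and 0.304.

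Among the granule genes THBS1 stood at -0.17 ± 0.65 (SD, n = 20) with AD, against 0.49 ± 0.78 (SD, n = 8) without it, a log2 fold change of -0.66 with a limma p of 0.0211 and an adjusted p of 0.643. Its second probe gave -0.28. MMRN1, multimerin, differed by -0.19 and VWF, von Willebrand factor, by -0.06. Their median r with the members in AD dogs was 0.677 for THBS1, 0.519 for MMRN1 and 0.063 for VWF.

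Of the receptors, CLEC1B, the podoplanin receptor CLEC-2, differed by 0.05 and P2RY12, the ADP receptor, by -0.02, with median r of 0.254 and 0.614 in AD dogs. No probe carried the names GP1BB, GP5, GP6 or GATA1. Of the signalling and cytoskeletal genes, MYL9, a myosin light chain, differed by -0.17, SDPR, a caveola protein now named CAVIN2, by -0.15, PTGS1 by -0.02 and RGS18, a regulator of G protein signalling, by 0.01. Their median r with the members in AD dogs lay between 0.470 for RGS18 and 0.673 for PTGS1. Of the transcription factors, NFE2, needed for platelet release, differed by 0.13 and GFI1B by 0.04. NFE2 had a median r of 0.498 in AD dogs, against -0.37 in healthy dogs.

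Markers of other cells were set beside the platelet genes as a description. Over the 6 of 10 red cell markers measured, the median r with the members was -0.01 in AD dogs, against -0.58 in healthy dogs, from -0.89 for SELP to -0.29 for GP9. Their median log2 fold change was 0.39, of opposite sign to the median of the platelet genes. The red cell list mean ran from -1.62 to 1.35 in AD dogs, against -1.47 to 1.04 in healthy dogs. Over the 7 of 8 monocyte markers the median r was 0.129 and 0.381, with F13A1 at 0.038 and 0.591, and the list mean ran from -0.99 to 0.49 in AD dogs, against -0.64 to 0.37 in healthy dogs. Over the 6 of 9 endothelial markers it was 0.039 and 0.047, with SELP at 0.087 and 0.024, and for neutrophil, T cell and B cell markers it lay between -0.24 and 0.19 in both groups. None of the red cell, monocyte or endothelial markers was called between the groups. Their part in the platelet values was not tested.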

How the data were processed

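Blood RNA (whole blood per the labels, blood nuclear cells in the study's methods) of 20 AD and 8 healthy dogs was measured on two-colour Agilent canine arrays, 1 array per dog, each against a pool of 13 healthy dogs. The authors deposited scanner files with Feature Extraction intensity values, background-subtracted and dye-normalized (version 10.7.3.1 per the labels, 10.10.1.1 in the file headers), and a value table of log10 ratios, which the deposited scanner files hold as well. Here log2 ratios of Cy5 to Cy3 processed intensity were computed, outlier-marked spots were left out, and spots of 1 probe were averaged. Probes were kept where at least 1 of the 4 medians by group and channel exceeded 100 (30202 probes), and each array was centred on its median. Groups were compared with limma 3.58.1 in R 4.3.3 (lmFit, eBayes, no covariate) with Benjamini-Hochberg adjustment over all probes kept, at 0.085, the level of the study's gene list, and at 0.05. With 1 array per dog, the number of dogs limits precision. On simulated probes for AD against healthy dogs with the spreads and group sizes of these 30202, 81.5% of 200 changes of 1 on the log2 scale were recovered and 23.0% of changes of 0.5. The 8 platelet genes varied more between dogs, with a median SD of 0.52 in AD and 0.54 in healthy dogs, against 0.43 and 0.30 for all probes. Recovery at the spread of the platelet genes was not simulated.

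Correlations used 100000 permutations in AD dogs and all 40320 orders in healthy dogs, two-sided. A gene was represented by its brightest probe by mean signal over both channels and all arrays. Members and gene lists were chosen with earlier results of these data known. The genes named were all members with every probe, a set of other platelet genes named whatever their result, the 10 symbols most like the members' mean in AD dogs, and the 3 highest and 3 lowest pairs with the receptor partners. Alternatives covered the filter, outlier marks, background correction, centring, channel, value table, probe choice, slide, scan day, dog number, variance model, array weights and left-out arrays, slides and dogs. The spread without each healthy dog was added after seeing the data. No genome of the array's build was used, and gene names are those of the array files. PF4 and 12 of the 65 other platelet genes, without a probe of that name, were not analysed.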

Additional observations from a re-analysis of the deposited data

Results flagged for a closer look

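GP1BA in healthy dog 1, at -1.53 on the log2 ratio scale, lay far from the other 7 healthy dogs: the gap to the next dog was 0.574 of the whole healthy range, above the critical value of 0.526 for 8 samples. It was the only one of 13 series of healthy values tested in this way, 12 member probes and the mean of the 8 genes, and chance marks about 1 in 20. The same dog was the lowest healthy dog for 8 of the 13 series without passing that limit, among them the mean of the 8 genes with a gap of 0.490.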

How the results depend on the processing

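No platelet gene and none of the other platelet and megakaryocyte genes was called under any of the alternatives run, the median log2 fold change stayed negative in all of them, and both median correlations stayed positive. Leaving out each dog in turn gave a median log2 fold change of -0.36 to -0.17, a median r of 0.620 to 0.689 in AD dogs and of 0.302 to 0.754 in healthy dogs, and 0 calls throughout. With each healthy dog left out, an alternative chosen after seeing the data, 1 to 7 of the 8 platelet genes had a larger SD in AD dogs, 7 of them without healthy dog 1, against 3 as reported. The other settings gave a median r of 0.608 to 0.722 in AD dogs and 0.448 to 0.815 in healthy dogs. Over all probes 0 were called as reported, 3 without a signal filter, 1 with the detection filter, 849 with array weights and 1251 with the dog channel alone, and the cause was not tested.

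The dog numbers 1 to 8 occur in both groups but tie no AD dog to a healthy dog: deviations of dogs with the same number correlated between -0.36 and 0.42 over 30115 probes. In the replicate block, dog number was a fixed term, so AD dogs whose number no healthy dog has add nothing to the group difference. That fit in effect sets AD dogs 1 to 8 against healthy dogs 1 to 8, paired by a number without meaning. Its median log2 fold change was -0.18, with 0 of 8 genes called. ITGB3 and GP1BA, 2 of 8, had a limma p under 0.05 (adjusted p = 0.238 and 0.273), where 17.1% of all probes had. Over the alternatives the adjusted p of GP1BA ran from 0.167 to 0.996.

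Some fold changes changed sign, and none of them was called. Most lay near 0 as reported, but PPBP was at -0.37 and MMRN1 at -0.19. GP9 was at 0.046 with the dog channel alone, 0.035 with the replicate block, 0.031 without scan day 5 and 0.047 without slide 3, and PPBP at 0.071 without slide 2. CLEC1B was at -0.016 with normexp and loess, -0.31 with the replicate block, and -0.16, -0.17 and -0.016 without slides 3, 5 and 6. GFI1B was at -0.013 with loess, -0.21 with the dog channel alone, and -0.10 and -0.0030 without slides 2 and 4. MMRN1 was at 0.35 with the dog channel alone. P2RY12 was at 0.22 with the dog channel alone, 0.038 without scan day 5, and 0.32, 0.0036 and 0.084 without slides 2, 4 and 8. PTGS1 was at 0.019 with loess, 0.14 with the dog channel alone, and 0.087, 0.055 and 0.026 without slides 3, 4 and 8. RGS18 was at -0.028 both without a filter and with centring on all probes, -0.0061 with the detection filter, -0.15 with the replicate block, -0.035 with array weights, and -0.62, -0.076 and -0.054 without slides 3, 5 and 6. With 1 dog left out, CLEC1B ran from -0.15 to 0.27, GFI1B from -0.018 to 0.15, MMRN1 from -0.38 to 0.046, P2RY12 from -0.11 to 0.085, PTGS1 from -0.13 to 0.082 and RGS18 from -0.15 to 0.14. In healthy dogs the r of F13A1 with ITGB3 was -0.58 and with TREML1 -0.24 without slide 2, which leaves 4 dogs. With 1 healthy dog left out, r ran from -0.38 to 0.72 for F13A1 with GP1BA, from -0.20 to 0.70 with ITGB3 and from -0.53 to 0.49 with TREML1.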
